A study of Mus musculus with 6 samples.

Results

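The 40 genes described here drive or restrain the cell cycle. They were taken as a named list that holds 18 genes of mitosis, 9 of DNA replication, 3 of entry into S phase, 5 D-type cyclins and their partner kinases, and 5 inhibitors. All 40 were found among the 19245 gene symbols of the deposited transcript table, and all 40 passed the filter on low counts. Their counts ran from 190 to 23298 per gene and library.

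The libraries came from mouse heart ventricles, both chambers together, at embryonic day 17.5, with 2 hearts pooled into each library. The 3 control libraries carried floxed alleles of the estrogen-related receptors ERRa (Esrra) and ERRg (Esrrg) without Cre, and the labels also call them wild type. The 3 libraries labelled knockout carried the same floxed alleles with Cre recombinase under the Nkx2-5 promoter, which acts in cardiac progenitors and their descendants. Both groups are labelled C57BL/6, and both kept any effect of the floxed alleles themselves, while Cre was present in 1 group alone. The estrogen-related receptors are nuclear receptors that switch on genes of energy metabolism, and the series asked how their loss alters expression in the embryonic heart.

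Esrra fell from 82.01, 68.9 and 76.4 CPM (gene counts as a rate per library, scaled by the TMM method) in the controls to 41.0, 44.0 and 43.7 in the labelled knockouts. Esrrg went against its label, with 81.9, 79.5 and 83.7 CPM in the controls, against 109.8, 116.7 and 120.2 in the labelled knockouts, so a direction below is stated for the libraries as labelled. Which exons lie between the loxP sites is not given in the sources used here, and summed counts cannot show loss of a short exon. The libraries held 12807218 to 32663845 gene counts. Y-linked genes summed to 0.0567, 112.2 and 0.167 CPM of library total in the controls, against 323.9, 145.6 and 167.0 in the labelled knockouts, and Xist stood at 0.949 CPM in knockout replicate 1 against 1170 to 2372 in the other libraries. The pools thus differed in Y-linked and Xist RNA, and all labelled knockouts exceeded all controls in Y-linked RNA, which therefore follows the groups in part. Calls that members lost with that level as a covariate are named below. For genes of other lists they are not named, so a rise or fall given for such a gene is that of the fit without the covariate.

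In the fetal heart cardiomyocytes still divide, and they leave the cycle soon after birth, while endothelial cells, fibroblasts and other cells of the ventricle divide as well. D-type cyclins bind Cdk4 or Cdk6 and inactivate the retinoblastoma protein Rb1, which frees E2F factors to switch on cyclin E and the replication genes. Cyclin A, cyclin B and Cdk1 then carry the cell through mitosis, under the control of a pair of kinase families, Aurora and Polo, and of a checkpoint that holds anaphase until the spindle is attached. Inhibitors of the p21 family (Cdkn1a, Cdkn1b, Cdkn1c) and the p18 protein (Cdkn2c) hold the kinases back. Because whole ventricle was sequenced, fewer dividing cells and less RNA per dividing cell cannot be told apart.

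The cell cycle genes did not move as one block. With the quasi-likelihood test of edgeR and p-values adjusted by Benjamini-Hochberg over 14290 genes, at an adjusted p under 0.05, 6 members rose, 12 fell and 22 did not pass. That is 45% of the members changed, where 44.4% of all genes tested changed, 22.4% upwards and 22% downwards. The share of members that changed is thus near that of the whole table. The split by direction was not, with 6 of 40 up and 12 of 40 down. The median log2 fold change was -0.03 over the 40 members and 0.01 over all tested genes. The members moved by little, with a median absolute log2 fold change of 0.13 against 0.20 for all genes, and 32 of 40 stayed within 1.2-fold. Ccnd2, Cdkn1a and Cdkn1c were the 3 members that changed by at least 1.5-fold, a size reached by 13.8% of all genes, and none changed 2-fold, as 5.85% of all genes did. The control and knockout libraries overlapped for 21 members, and the labelled knockouts lay above all controls for 6 and below all controls for 13. Of all genes 53.7% had groups that did not overlap, 26.8% above and 26.9% below.

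**Figure D1:**
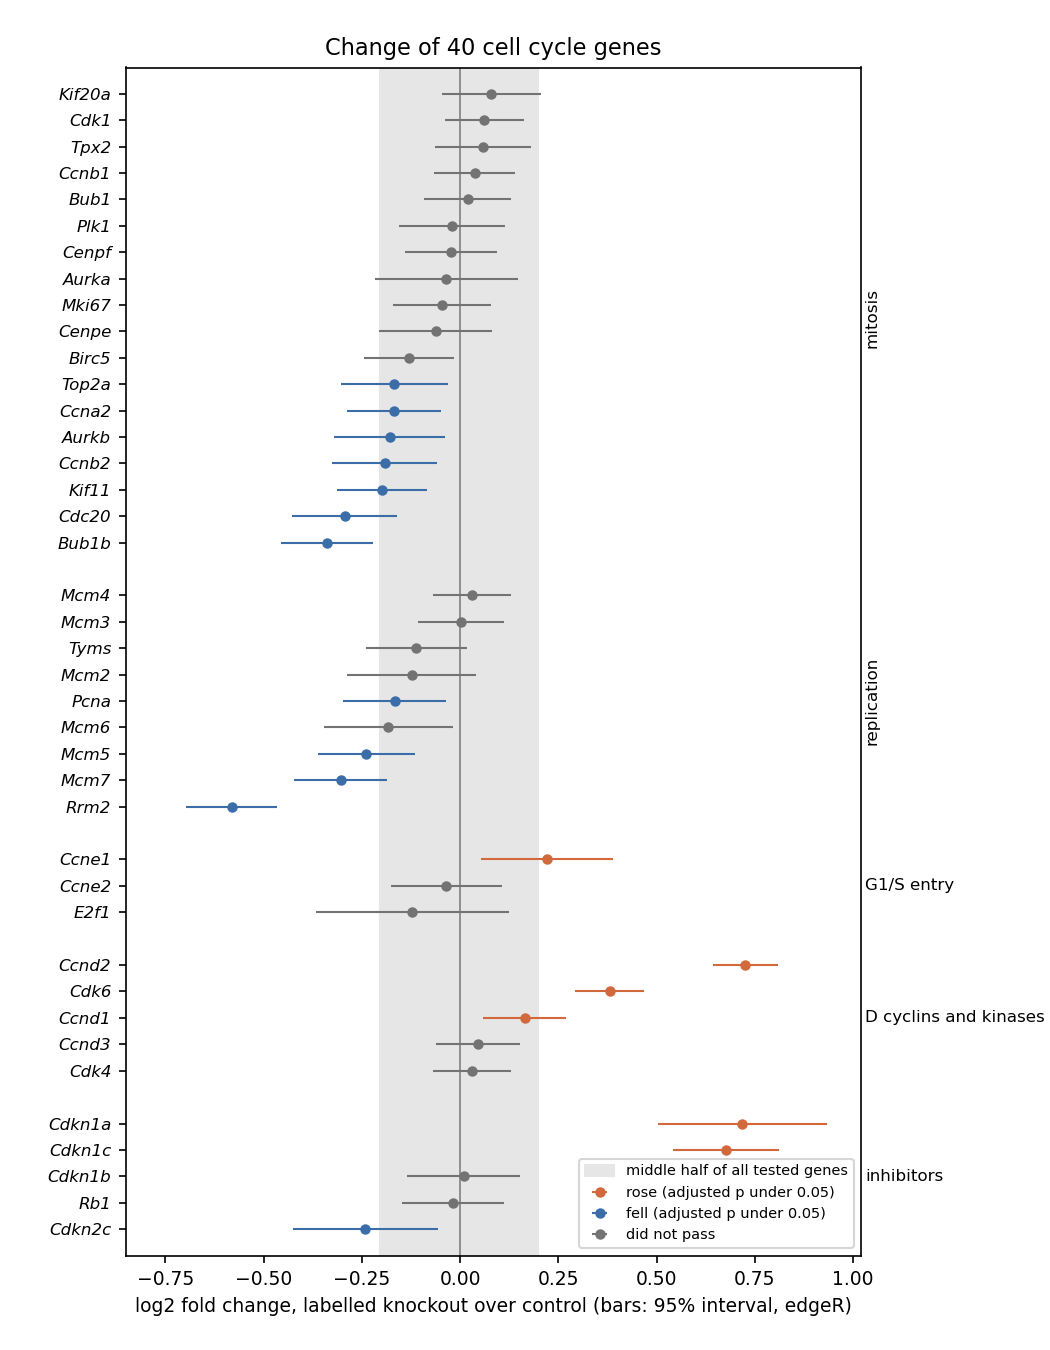
Log2 fold change of each of the 40 cell cycle genes, labelled knockout over control, ordered by role, with bars for the 95% interval from edgeR and colour for the call at an adjusted p under 0.05. The grey band spans the lower to the upper quartile of all tested genes, and Ccnd2, Cdk6, Cdkn1a and Cdkn1c on the right and Rrm2 on the left stand furthest outside it.

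The zero point of these fold changes depends on the scaling. The deposited RPKM values are relative to all reads assigned to a location, intronic and intergenic ones included, and the intergenic share was 23.3 to 27.1% in the controls, against 16.4 to 22.4% in the labelled knockouts. Scaled to those reads, the median of all genes moved to 0.16, 5519 genes were higher and 1685 lower in place of 3198 and 3150, and 14 members were higher and 3 lower in place of 6 and 12. Relative to that shift the member medians were near those with TMM, at -0.07 for mitosis, -0.18 for replication and 0.15 for the D cyclins and kinases. Bub1b, Rrm2, Ccnd2, Cdk6, Cdkn1a and Cdkn1c kept their call and direction under all 18 settings that were fitted to gene counts.

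Promoter windows, which run from 250 bases before to 50 after a gene's start in RefSeq (GRCm38.p6), were at hand for 30 of the 40 members. None was at hand for Ccna2, Aurkb, Tpx2, Kif20a, Mcm4, Ccne2, Ccnd1, Ccnd2, Cdkn1c or Rb1, which were therefore not searched. They were searched on both strands for the cell cycle homology region (CHR, TTTGAA or TTTAAA), the CCAAT box (CCAAT), E2F sites (TTTCCCGC, TTTGGCGC, TTTCGCGC or TTTGCCGC) and the ERR response element (TNAAGGTCA). CHR elements and CCAAT boxes are known from promoters of genes that peak in mitosis, and E2F sites from those that peak at the start of S phase. The mitosis windows held a CHR in 13 of 14 genes, where 30.6% of the 27025 genes with a window did, and a CCAAT box in 13 of 14, against 41.1%. Among 8 replication genes 4 held an E2F site, against 2.6% of all genes, and 3 held a CHR. The ERR response element stood in none of the 30 member windows and in 1.43% of all genes. These matches describe letters in a window and show no binding.

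The following windows belong to members of the mitosis and replication groups, and capitals mark the motifs named above. Ccnd2 and Cdkn1c, which changed by at least 1.5-fold, had no window to show. Bub1b (chr2:118597961-118598260, plus strand) and Cdc20 (chr4:118437294-118437593, minus strand) are the mitotic genes with the greatest falls, Mki67 (chr7:135716330-135716629, minus strand) is a mitotic gene that did not pass the test, and Rrm2 (chr12:24708004-24708303, plus strand) and Mcm7 (chr5:138171834-138172133, minus strand) are the replication genes with the greatest falls.
Bub1b: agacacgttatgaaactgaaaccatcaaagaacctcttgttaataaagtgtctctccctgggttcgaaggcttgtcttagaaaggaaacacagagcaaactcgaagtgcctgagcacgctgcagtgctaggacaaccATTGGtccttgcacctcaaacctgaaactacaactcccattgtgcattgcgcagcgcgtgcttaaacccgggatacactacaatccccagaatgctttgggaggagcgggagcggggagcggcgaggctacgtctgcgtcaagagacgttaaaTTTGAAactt
Cdc20: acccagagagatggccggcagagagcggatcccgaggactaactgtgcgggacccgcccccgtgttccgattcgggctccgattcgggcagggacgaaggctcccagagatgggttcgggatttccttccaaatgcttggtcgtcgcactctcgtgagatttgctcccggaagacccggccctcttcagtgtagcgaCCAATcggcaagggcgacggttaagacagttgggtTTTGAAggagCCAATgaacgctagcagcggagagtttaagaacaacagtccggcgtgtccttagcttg
Mki67: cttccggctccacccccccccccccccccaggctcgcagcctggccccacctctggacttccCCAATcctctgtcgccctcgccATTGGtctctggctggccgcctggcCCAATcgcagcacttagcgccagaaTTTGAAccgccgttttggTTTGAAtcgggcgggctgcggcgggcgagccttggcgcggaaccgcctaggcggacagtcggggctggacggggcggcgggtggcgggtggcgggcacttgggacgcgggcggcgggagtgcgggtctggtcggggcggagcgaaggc
Rrm2: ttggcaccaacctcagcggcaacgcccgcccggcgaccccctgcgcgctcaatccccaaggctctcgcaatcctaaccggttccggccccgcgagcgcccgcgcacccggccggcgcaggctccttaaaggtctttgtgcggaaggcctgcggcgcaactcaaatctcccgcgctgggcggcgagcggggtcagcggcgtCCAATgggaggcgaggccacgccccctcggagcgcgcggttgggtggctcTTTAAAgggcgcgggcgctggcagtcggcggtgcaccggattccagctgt
Mcm7: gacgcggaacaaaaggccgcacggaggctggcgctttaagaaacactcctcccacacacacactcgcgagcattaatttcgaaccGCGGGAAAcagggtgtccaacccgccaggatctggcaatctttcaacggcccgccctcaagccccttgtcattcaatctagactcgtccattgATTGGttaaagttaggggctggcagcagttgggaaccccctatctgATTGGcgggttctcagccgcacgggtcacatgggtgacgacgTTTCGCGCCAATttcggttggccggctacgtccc
CHR elements and CCAAT boxes were in the windows of Bub1b and Cdc20, which fell, and also in that of Mki67, which did not pass the test. The Rrm2 window held a CHR at its start site and a CCAAT box 50 bases before it, with no E2F site of the searched letters, while the Mcm7 window held 2 E2F sites, and the one after the start site shares a base with a CCAAT box.

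The genes of mitosis fell in part and by little. Of the 18 members 7 fell, none rose and 11 did not pass. That is 38.9% changed, all of them downwards, where 44.4% of all genes changed, 22.4% upwards and 22% downwards. The median log2 fold change was -0.05, with 16 of 18 within 1.2-fold. With scaling to all located reads the median was 0.10 beside a shift of 0.16 for all genes, and 5 were higher and 1 lower. Mki67, the proliferation antigen that coats mitotic chromosomes, had 728.4, 808.1 and 727.6 CPM in the controls, against 694.5, 783.3 and 716.2 in the labelled knockouts. The groups overlapped, and its log2 fold change was -0.05, with a 95% interval from -0.17 to 0.08 and an adjusted p of 0.559 by edgeR.

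Bub1b and Cdc20 are parts of the spindle checkpoint, in which Bub1b (BubR1) holds the anaphase activator Cdc20 in check. Bub1b stood at 115.2, 133.8 and 128.6 CPM in the controls, against 97.0, 102.5 and 98.9 in the labelled knockouts. Each labelled knockout lay below each control, and the log2 fold change was -0.34 (SE 0.0539, adjusted p 2.20e-04 by edgeR). Cdc20 went from 67.1, 72.4 and 62.1 CPM to 53.2, 53.1 and 57.8, again without overlap, with a log2 fold change of -0.29 (SE 0.0613, adjusted p 1.76e-03 by edgeR). Its call was lost with scaling to all located reads (-0.14, adjusted p 0.129). Bub1, the kinase that recruits Bub1b to kinetochores, had 71.9, 75.8 and 71.4 CPM in the controls, against 69.8, 76.2 and 76.5 in the labelled knockouts, which overlap. In RPKM, which is per transcript length and does not depend on the scaling when 2 genes of a library are divided, Bub1b over Bub1 was 1.89, 2.09 and 2.13 in the controls, against 1.64, 1.59 and 1.53 in the labelled knockouts.

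The mitotic cyclins and Cdk1 did not share a direction. Ccnb2 (cyclin B2) had 52.2, 59.1 and 53.01 CPM in the controls, against 47.5, 50.6 and 45.6 in the labelled knockouts, and fell (log2 fold change -0.19, SE 0.0613, adjusted p 0.0220 by edgeR). Ccna2, cyclin A2, fell from 210.4, 236.5 and 210.1 CPM to 183.8, 207.3 and 193.9 (-0.17, adjusted p 0.0245 by edgeR). The labelled knockouts lay below the controls for both genes. Ccnb1 (cyclin B1) had 107.2, 120.9 and 110.8 CPM in the controls, against 115.4, 117.3 and 114.7 in the labelled knockouts. Cdk1, the kinase that both B cyclins activate, had 95.3, 100.1 and 90.1 CPM in the controls, against 97.5, 100.3 and 100.003 in the labelled knockouts. The groups overlapped for Ccnb1 and Cdk1, with adjusted p of 0.558 and 0.312 by edgeR. The RPKM ratio of Ccnb2 to Ccnb1 was 0.732, 0.735 and 0.719 in the controls, against 0.618, 0.649 and 0.597 in the labelled knockouts, with no overlap. For Ccnb1, the denominator, 51.95% of the transcript sequence is matched by 4 pseudogenes, so this ratio is less certain.

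Top2a, the topoisomerase that untangles sister chromatids, fell from 479.6, 566.8 and 490.4 CPM to 431.6, 479.3 and 457.9 (log2 fold change -0.17, adjusted p 0.0461 by edgeR). Kif11, the kinesin that pushes the spindle poles apart, fell from 182.0, 208.9 and 188.4 CPM to 160.8, 175.9 and 168.3 (-0.20, adjusted p 8.37e-03 by edgeR). Aurkb, the Aurora kinase of the chromosomal passenger complex, fell from 34.3, 36.1 and 31.7 CPM to 30.2, 31.3 and 28.5 (-0.18, adjusted p 0.0390 by edgeR). The control and knockout libraries did not overlap for these genes, but the gaps were small. Birc5 (survivin), a partner of Aurkb, also lay lower in each labelled knockout, at 46.0 to 46.05 CPM against 47.7 to 52.9, and did not pass (-0.13, adjusted p 0.0648 by edgeR). Its deposited transcripts have the same start and end but had different values. The log2 fold change was -0.37 (SE 0.0874) for NM_001012273 and -0.01 (SE 0.0584) for NM_009689. These transcript counts are estimates that divide shared reads, and that uncertainty is not in the SE. NM_001012273 held 36.8 to 38.5% of the gene's counts in the controls, against 31.5 to 33.2% in the labelled knockouts (two-sided exact permutation p 0.1, the smallest that 3 against 3 allows). The remaining mitotic kinases, kinesins and kinetochore genes, Aurka, Plk1, Tpx2, Cenpe, Cenpf and Kif20a, had log2 fold changes from -0.06 for Cenpe to 0.08 for Kif20a and overlapped between the groups. A gene on the opposite strand overlaps 29.3% of the exonic bases of Kif20a.

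**Figure D2:**
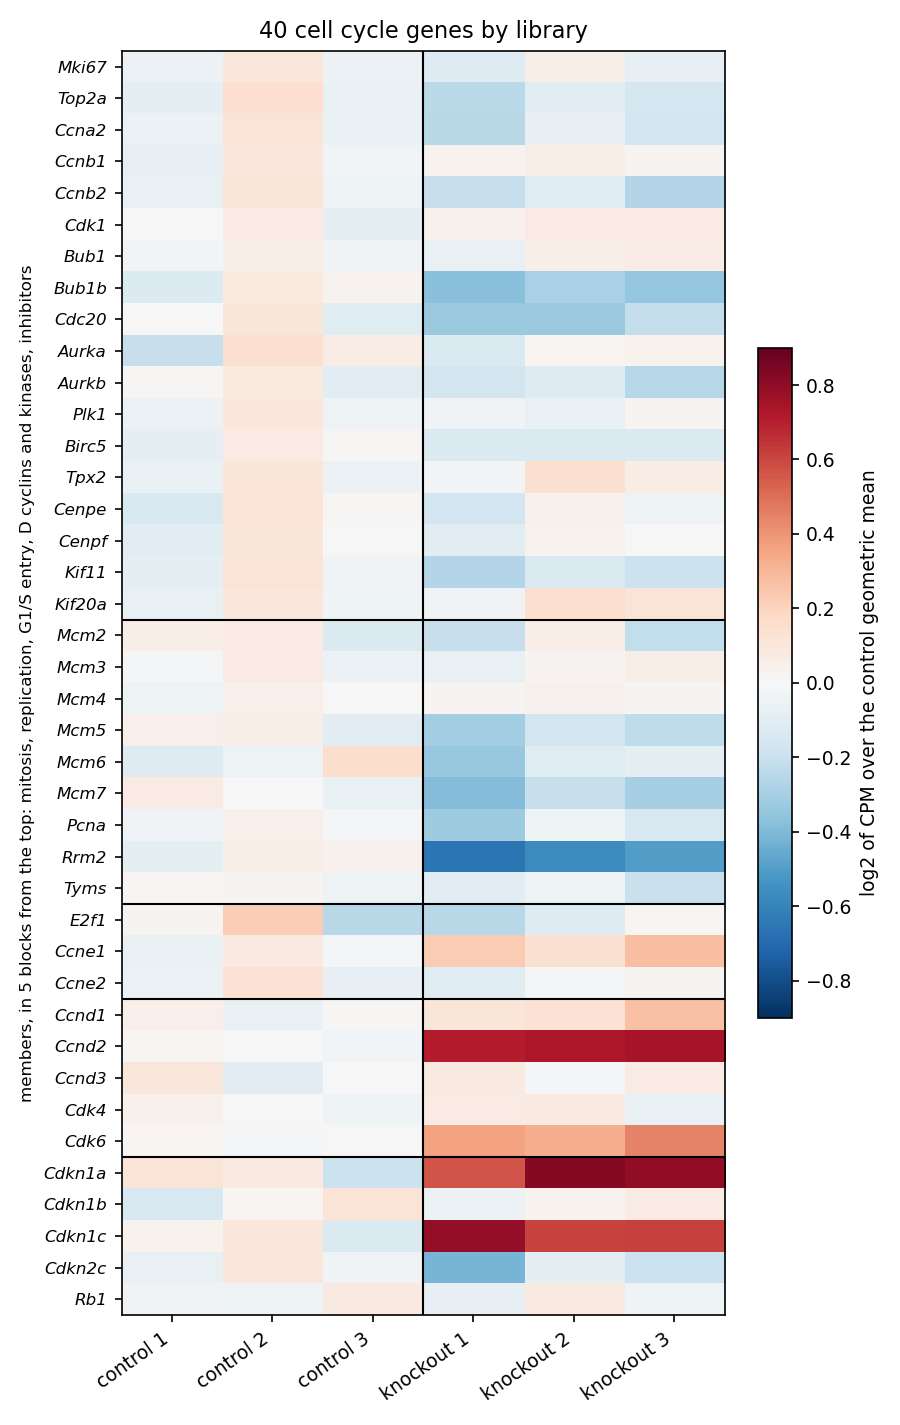
Each of the 40 cell cycle genes (rows, by role) in each of the 6 libraries (columns), as log2 of CPM over the geometric mean of the controls. Control replicate 2 is the highest control for all 18 mitosis genes, and the labelled knockouts are dark red for Ccnd2, Cdkn1a and Cdkn1c and dark blue for Rrm2.

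Single libraries weighed on the mitotic counts. Control replicate 2 was the highest control for 18 of 18 mitosis members and knockout replicate 2 the highest labelled knockout for 13 of 18. Summed over the 18 genes, the level was 2788, 3162 and 2848 CPM in the controls, against 2628, 2891 and 2755 in the labelled knockouts, which overlap. Without control replicate 2, without knockout replicate 1 or without knockout replicate 3, 3 mitosis members fell in place of 7, and Top2a, Ccna2, Ccnb2 and Aurkb lost their calls in each of these fits. Those 4 genes and Kif11 also lost them with the Y-linked level as a covariate, and 2 mitosis members then fell, Bub1b and Cdc20.

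Some of the replication genes fell. Of 9 members 4 fell, none rose and 5 did not pass. That is 44.4% changed, all of them downwards, where 44.4% of all genes changed, 22.4% upwards and 22% downwards. The median log2 fold change was -0.17. With scaling to all located reads it was -0.02 beside the shift of 0.16, and 1 was higher and 2 lower. Rrm2, the regulated subunit of ribonucleotide reductase, which makes deoxynucleotides for S phase, fell furthest. It had 105.1, 115.8 and 114.7 CPM in the controls, against 70.7, 75.01 and 78.8 in the labelled knockouts, a wide gap between the groups. Its level fell by 33.2%, with a log2 fold change of -0.58 (SE 0.0537, adjusted p 1.98e-06 by edgeR). Rrm1, the other subunit, is no member, and fell from 201.9, 215.2 and 201.2 CPM to 146.6, 163.5 and 154.6 (-0.41, adjusted p 1.25e-05 by edgeR). The RPKM ratio of Rrm2 to Mki67 was 0.667, 0.662 and 0.729 in the controls, against 0.470, 0.443 and 0.509 in the labelled knockouts. Rrm2 shares 27.9% of its transcript sequence with 2 pseudogenes at 95% identity or more.

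The MCM helicase, a ring of 6 proteins that unwinds DNA at the fork, was split. Mcm7 fell from 113.0, 107.0 and 102.4 CPM to 81.8, 92.9 and 87.5, with a log2 fold change of -0.30 (SE 0.0545, adjusted p 5.84e-04 by edgeR). Mcm5 fell from 75.3, 75.8 and 68.2 CPM to 58.8, 65.1 and 62.5 (-0.24, adjusted p 4.18e-03 by edgeR). Neither gene had overlapping groups, and both lost the call with the Y-linked covariate (adjusted p 0.113 and 0.183). Mcm3 had 75.9, 80.7 and 73.9 CPM in the controls, against 73.5, 78.1 and 79.5 in the labelled knockouts, and Mcm4 had 65.3, 69.8 and 67.6 against 68.8, 69.3 and 68.7. Mcm3 and Mcm4 overlapped between the groups, with 95% intervals from -0.11 to 0.11 and from -0.07 to 0.13. Mcm2 and Mcm6 had log2 fold changes of -0.12 and -0.18 and did not pass (adjusted p 0.210 and 0.0670 by edgeR). Of 18 alternative settings, Mcm6 passed in 5 and Mcm2 in 1. The RPKM ratio of Mcm7 to Mcm4 was 2.27 to 2.59 in the controls, against 1.78 to 2.01 in the labelled knockouts. For Mcm7, 85.8% of the transcript sequence is matched by a pseudogene or by overlapping neighbours, so its counts are less certain.

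Pcna, the sliding clamp of the polymerases, had 141.7, 149.0 and 143.2 CPM in the controls, against 116.0, 141.0 and 130.8 in the labelled knockouts. It fell (-0.17, adjusted p 0.0397 by edgeR), though knockout replicate 2 lay close to control replicate 1, and it did not pass when any 1 library other than knockout replicate 2 was left out, or with the Y-linked covariate (adjusted p 0.876). A pseudogene matches 51.45% of its transcript sequence at 95% identity or more. Tyms, thymidylate synthase, had 35.6, 35.8 and 34.0 CPM against 32.9, 34.1 and 30.6, which overlap (adjusted p 0.152 by edgeR). Summed over the 9 genes, replication CPM was 825, 854 and 830 in the controls, against 683, 770 and 737 in the labelled knockouts, all lower. Divided by the summed mitosis CPM it was 0.296, 0.270 and 0.291 in the controls, against 0.260, 0.266 and 0.268 in the labelled knockouts. The groups did not overlap in this ratio, but control replicate 2 lay close to the labelled knockouts.

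**Figure D3:**
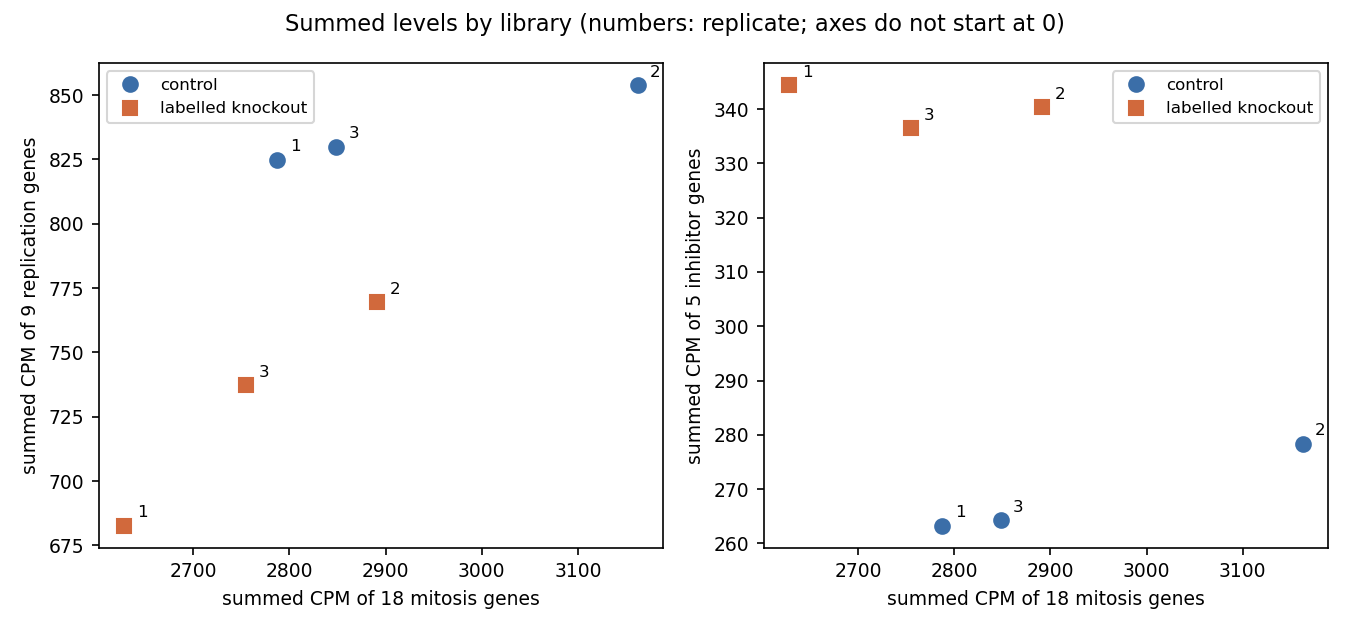
Summed CPM of the 9 replication genes (left) and of the 5 inhibitors (right) against that of the 18 mitosis genes, 1 point per library, with the replicate number beside it and axes that do not start at 0. The mitosis sums overlap between 2788 and 2891 CPM, while the labelled knockouts lie lower in the replication sum and higher in the inhibitor sum, of which Cdkn1c is the largest part, than each control.

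Entry into S phase had 3 members. Ccne1, cyclin E1, rose from 13.6, 15.01 and 14.0 CPM to 16.6, 15.6 and 17.1 (log2 fold change 0.22, adjusted p 0.0349 by edgeR), with every labelled knockout above every control. That call was lost with DESeq2 (adjusted p 0.167), with the Y-linked covariate (0.471) and when control replicate 1 or 3, or knockout replicate 1 or 3, was left out. Ccne2, cyclin E2, and E2f1, the transcription factor that starts the replication program, overlapped between the groups, with log2 fold changes of -0.03 and -0.12. E2f1 had the lowest control RPKM of the members, and its 95% interval from -0.37 to 0.12 was the widest among those that did not pass.

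Most of the D cyclins and their kinases rose. Of 5 members 3 rose and none fell, and the median log2 fold change was 0.16. That is 60% changed, where 44.4% of all genes changed, 22.4% upwards. All 5 had positive signs under TMM, upper quartile, library total and located read scaling. With the Y-linked covariate 4 were positive and 1 negative. Ccnd2, cyclin D2, had 267.0, 264.2 and 259.4 CPM in the controls, against 430.7, 435.8 and 441.2 in the labelled knockouts. The SD over replicates was at most 5.26 CPM and the groups lie far apart, with a log2 fold change of 0.73 (SE 0.0379, 1.65-fold, adjusted p 8.93e-09 by edgeR). Cdk6, a D cyclin partner kinase, rose from 170.7, 166.4 and 167.9 CPM to 216.5, 211.5 and 229.5, with a log2 fold change of 0.38 (SE 0.0403, adjusted p 6.83e-06 by edgeR). Ccnd1, cyclin D1, rose from 125.0, 116.3 and 121.8 CPM to 130.4, 132.2 and 144.9 (0.16, adjusted p 0.0149 by edgeR), and lost its call without control replicate 2 or knockout replicate 3. Ccnd3 and Cdk4 overlapped between the groups, at 0.05 and 0.03, with 95% intervals that end at 0.15 and 0.13. For Ccnd1 23.4% and for Cdk4 19.7% of exonic bases are overlapped by a gene on the opposite strand, and for Ccnd3 58.3% of the transcript sequence is matched by a pseudogene or a neighbour.

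The make-up of the D cyclin pool differed between the groups. In RPKM, Ccnd2 over Ccnd1 was 1.41, 1.49 and 1.40 in the controls, against 2.17, 2.17 and 2.003 in the labelled knockouts. Ccnd2 over Ccnd3, the most abundant of the D cyclins in the controls, was 0.546, 0.617 and 0.571 against 0.894, 0.963 and 0.917. Cdk6 over Cdk4 was 0.112, 0.111 and 0.116 in the controls, against 0.138, 0.134 and 0.161 in the labelled knockouts. Each of these ratios was higher in all 3 labelled knockouts than in any control, and the shared sequence of Ccnd1, Ccnd3 and Cdk4 makes the denominators less certain. Cdk4 had the highest RPKM of all members in the controls, 46.4 ± 0.748 (SD, n = 3), and Ccnd2 stood at 16.4 ± 0.286, in place 10 of 40.

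Among the inhibitors 2 rose, 1 fell and 2 did not pass. That is 60% changed, where 44.4% of all genes changed. The median log2 fold change was 0.01, with 2 of 5 negative (0.16 beside the shift of 0.16 with scaling to all located reads, and -0.04 to 0.08 with 1 library left out). Cdkn1c (p57), an imprinted inhibitor of the p21 family, had 115.4, 120.8 and 103.3 CPM in the controls, against 195.3, 172.2 and 173.1 in the labelled knockouts. The groups did not overlap, and the log2 fold change was 0.68 (SE 0.0622, 1.60-fold, adjusted p 1.92e-06 by edgeR). An antisense gene overlaps 30.65% of its exonic bases, and whether the counting used strand is not given in the sources used here. Cdkn1b (p27) had 57.4, 64.3 and 69.2 CPM in the controls, against 61.0, 64.7 and 66.6 in the labelled knockouts, with a 95% interval from -0.13 to 0.15 and an adjusted p of 0.930 by edgeR. The RPKM ratio of Cdkn1c to Cdkn1b was 2.53, 2.36 and 1.88 in the controls, against 4.02, 3.34 and 3.26 in the labelled knockouts, higher in each. Cdkn2c (p18), which binds Cdk4 and Cdk6, fell from 30.4, 34.2 and 31.2 CPM to 23.8, 30.1 and 27.8 (-0.24, adjusted p 0.0355 by edgeR). It lost its call with DESeq2 (adjusted p 0.0571), with the Y-linked covariate (0.710) and when control replicate 2 or 3, or knockout replicate 1, was left out. Rb1 overlapped between the groups, at 44.2 to 48.2 CPM in the controls, against 43.3 to 48.3 in the labelled knockouts.

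Cdkn1a (p21), the inhibitor that p53 is known to switch on, had a low level among the members, at a control RPKM of 2.65 ± 0.276 (SD, n = 3). It had 15.4, 14.9 and 12.3 CPM in the controls, against 21.0, 25.05 and 24.6 in the labelled knockouts, which did not overlap. The log2 fold change was 0.72 (SE 0.0986, 1.65-fold, adjusted p 6.70e-05 by edgeR).

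**Figure D4:**
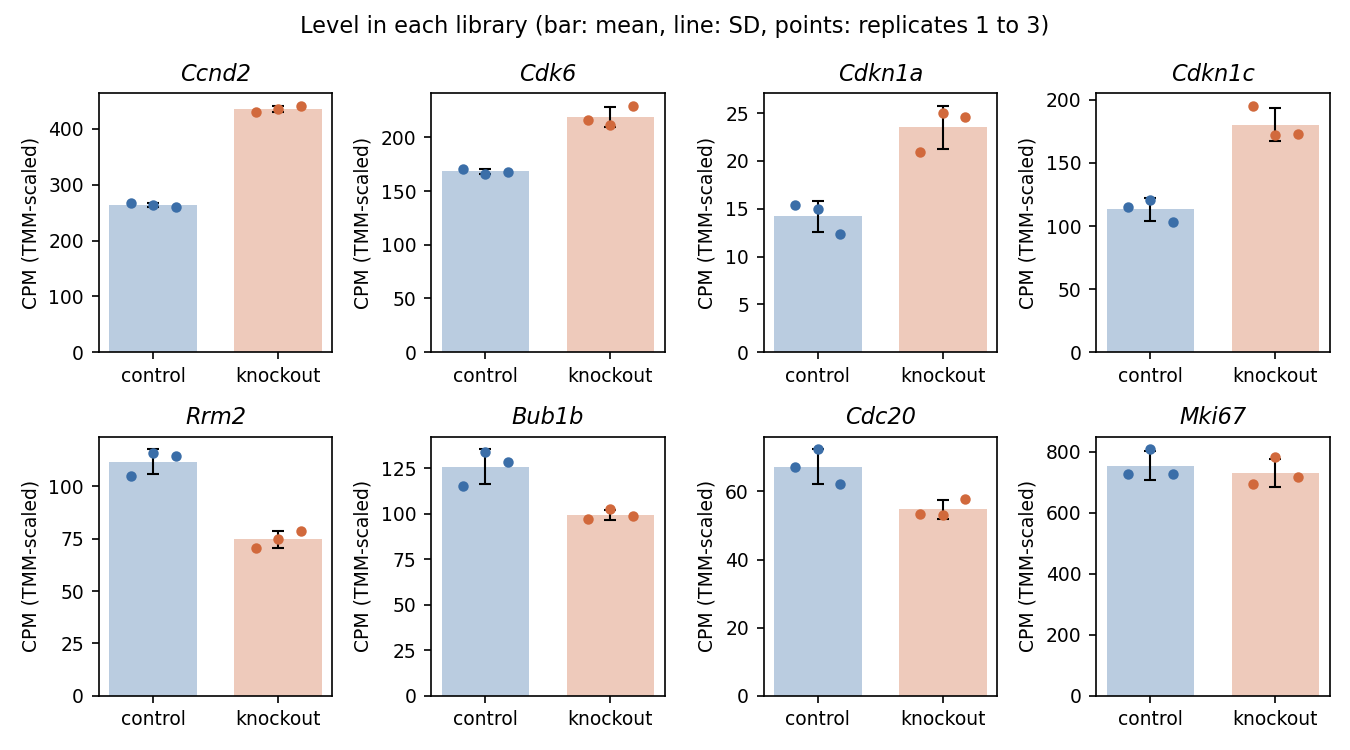
CPM in each library of Ccnd2, Cdk6, Cdkn1a, Cdkn1c, Rrm2, Bub1b, Cdc20 and Mki67, with bars from 0 to the mean, lines for the SD over 3 libraries and a point per library. Control and labelled knockout points overlap for Mki67 and are separate for the other genes.

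Cdkn1a has a pair of transcripts in the deposited table that start at different places on chromosome 17 (plus strand, mm10) and end together at 29100722. NM_001111099 starts at 29090979 and had 3.19, 3.55 and 3.93 CPM in the controls, against 9.0, 12.7 and 8.61 in the labelled knockouts, each above each control. Its log2 fold change was 1.499 (SE 0.202), with an adjusted p of 2.01e-03 over 21591 transcripts by edgeR. NM_007669 starts downstream at 29093769 and had 12.2, 11.4 and 8.43 CPM in the controls, against 11.9, 12.3 and 15.9 in the labelled knockouts, which overlap, with a log2 fold change of 0.33 (SE 0.180, adjusted p 0.253). NM_001111099 held 20.8, 23.7 and 31.8% of the gene's counts in the controls, against 43.1, 50.8 and 35.1% in the labelled knockouts (two-sided exact permutation p 0.1, the smallest that 3 against 3 allows). The deposited transcript counts are estimates that divide shared reads, and that uncertainty is not in these tests. Over all transcripts 22.7% changed.

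The windows around these starts, chr17:29090729-29091028 and chr17:29093519-29093818 (plus strand, GRCm38.p6), are shown because the transcripts differ in the data. Capitals mark a match to the p53 site, here 2 adjacent 10-base units of the p53 consensus with at most 1 mismatch in 20 bases, a search that was added after the windows had been read.
Cdkn1a, NM_001111099: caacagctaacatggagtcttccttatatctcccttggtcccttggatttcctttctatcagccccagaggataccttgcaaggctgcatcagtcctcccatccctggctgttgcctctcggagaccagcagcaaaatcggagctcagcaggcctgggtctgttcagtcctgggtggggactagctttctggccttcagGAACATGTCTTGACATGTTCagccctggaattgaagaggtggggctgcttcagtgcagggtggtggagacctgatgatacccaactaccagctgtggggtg
Cdkn1a, NM_007669: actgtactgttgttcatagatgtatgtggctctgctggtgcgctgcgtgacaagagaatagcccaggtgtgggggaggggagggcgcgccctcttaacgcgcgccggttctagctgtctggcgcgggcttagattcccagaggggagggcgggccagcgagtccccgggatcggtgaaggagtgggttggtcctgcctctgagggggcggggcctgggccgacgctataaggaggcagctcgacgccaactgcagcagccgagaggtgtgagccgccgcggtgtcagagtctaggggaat
The upstream window held the match 51 bases before its start, and the downstream window held none. Of the 27025 genes with a window 29 (0.107%) held such a match, and Cdkn1a was the 1 member that did. Because the search was set up after the Cdkn1a windows had been read, this share is no test of the match.

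Genes of other lists were counted beside the members. Of 20 p53 targets 8 rose, 2 fell and 10 did not pass, with a median log2 fold change of 0.17. That is 50% changed, where 44.4% of all genes tested changed, 22.4% upwards and 22% downwards. Zmat3, an RNA-binding target of p53, rose from 26.8, 30.9 and 27.8 CPM to 45.5, 42.7 and 49.5. Eda2r, a receptor of the TNF receptor family, rose from 6.61, 9.67 and 8.47 CPM to 14.97, 17.3 and 17.6. Pmaip1 (Noxa), which promotes cell death, rose from 0.695, 0.472 and 0.682 CPM to 2.24, 1.81 and 1.93. Its control levels lay near the floor of 3 counts, which was 0.167 to 0.234 CPM in the controls. Log2 fold changes of Zmat3, Eda2r and Pmaip1 were 0.70, 1.01 and 1.68, and the adjusted p 4.90e-06, 2.28e-05 and 1.24e-04 by edgeR. Perp also rose (0.34). Rrm2b, the p53-dependent subunit of ribonucleotide reductase, fell (-0.23, adjusted p 0.0179 by edgeR), as did Sesn1 (-0.15). With the Y-linked covariate 5 of the 20 were higher and 0 lower.

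A list of 13 genes held targets of YAP and TAZ, coactivators that promote growth of heart muscle. It also held the coactivators themselves (Yap1 and Wwtr1) and Tead1. Of these 13 genes 8 rose, none fell and 5 did not pass, with a median of 0.20. That is 61.5% changed, where 44.4% of all genes changed, 22.4% upwards. Ctgf, a matricellular protein, rose from 52.0, 53.8 and 75.6 CPM to 159.5, 121.0 and 155.5 (1.26, adjusted p 4.34e-06 by edgeR). Tead1, the DNA-binding partner of YAP, rose from 341.0, 358.5 and 353.4 CPM to 455.1, 467.7 and 473.7 (0.41). Axl (0.58) and Ptpn14 (0.47) rose as well.

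The 4 further lists held 136 other cell cycle genes, of which 134 were tested. Of these 5 rose (3.73%), 39 fell (29.1%) and 90 did not pass, with a median log2 fold change of -0.09, beside 22.4% of all genes that rose and 22% that fell. With scaling to all located reads 22 were higher and 15 lower. Fewer passed in each direction with the Y-linked level as a covariate, and which of the genes named below then kept their call is not given here. Of 46 other replication genes 17 fell and 1 rose, with a median of -0.13. Gmnn, geminin, which blocks a further round of origin licensing, fell from 29.0, 30.6 and 28.3 CPM to 15.1, 18.5 and 16.6 (-0.82, adjusted p 2.72e-06 by edgeR). Cdt1, the licensing factor that geminin binds, fell from 23.0, 19.9 and 19.7 CPM to 12.6, 13.5 and 15.3 (-0.61, adjusted p 1.55e-04 by edgeR). Neither gene had overlapping groups, and Orc2, of the origin recognition complex, rose (0.20).

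Of 55 other mitotic genes 13 fell and 1 rose, with a median of -0.08. The falls with the smallest adjusted p were Spc25 and Spc24 of the Ndc80 kinetochore complex (-0.36 and -0.32), Pttg1 (securin, -0.45) and the condensin subunit Ncapd2 (-0.25), and the rise was Anln, anillin of the cleavage furrow (0.15, adjusted p 0.0293 by edgeR). Of 23 other G1/S regulators 7 fell, led by E2f6 (-0.34), Cdk2 (-0.23), Tfdp2 (-0.19) and Lin9 (-0.29), and Cks1b (0.19) and E2f5 (0.24) rose. Of 10 other inhibitors and anti-proliferative genes that were tested, Tob1 (-0.37) and Pkmyt1 (-0.33) fell and Btg2 (0.23) rose.

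Markers of the cell types in ventricle moved between the same libraries, and their part in the results above was not tested. The counts below stand beside 22.4% of all genes that rose and 22% that fell. Of 9 cardiomyocyte markers 8 fell (median -0.43), and their summed level was 108461 to 111030 CPM in the controls, against 86942 to 96398 in the labelled knockouts. All 9 fibroblast markers rose, with a median of 0.56 and sums of 5307 to 5603 against 7435 to 8617 CPM. Of 9 endothelial markers 2 rose and 6 fell (sums 1139 to 1204 against 1029 to 1061 CPM), of 8 smooth muscle and pericyte markers 1 rose and 4 fell (1063 to 1087 against 939 to 970 CPM), and of 8 epicardial markers 5 rose (142.3 to 155.1 against 193.9 to 206.1 CPM). Of 9 tested macrophage and leukocyte markers 3 rose and 1 fell (72.5 to 83.8 against 90.7 to 100.05 CPM), of 9 tested erythroid markers 1 rose (565.5 to 822.0 against 616.9 to 1283 CPM), and of 8 atrial markers 4 rose (1004 to 1091 against 2810 to 3412 CPM). No marker with a deposited symbol was at 0 in all libraries, those that did not pass the filter on low counts included. The cardiomyocyte markers, the check on the labelled tissue, held the largest sum of these lists in every library.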

How the data were processed

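RNA was sequenced as single-end 50-base reads from 6 libraries. The authors deposited estimated counts and RPKM per transcript, per the file headers, and a read summary with read counts and percent of reads by location. TopHat2 2.0, Partek 6.6, DESeq and mm10 are named in the submitters' processing notes; the sources used here give neither their roles nor the strand setting of the counting. The labels name an mRNA and a stranded total RNA kit.

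The deposited estimated counts of 30031 transcripts were summed per symbol (94.5% of sums within 0.01 of whole) and rounded. edgeR 4.0.16 (TMM scaling, filterByExpr with a minimum of 10 counts and 15 in total, quasi-likelihood test, Benjamini-Hochberg) compared 3 labelled knockouts with 3 controls. The labels do not tie hearts to litters, so p-values measure the spread between pools. Counting error alone sets a floor of 0.0918 to 0.234 CPM (3 counts). Replicates differed by more than sampling noise (chi-square per degree of freedom 2.64 to 10.2). The labels do not pair libraries by replicate number, and correlations of deviations for the same number were -0.01, -0.02 and 0.10. Whether such libraries shared a litter or batch was not tested. RPKM was used for ratios between genes. Copies and overlaps came from GENCODE vM21 with blastn 2.17.0 at 95% identity over 50 bases or more, permutation tests from SciPy. The script was tested on simulated data.

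Members and lists were chosen with earlier results of these data known. Named are all 40 members, the targeted genes and Nkx2-5, and per other list up to 4 changed genes of the majority direction and 2 of the other by adjusted p, of which 1 is left out here; Nkx2-5 fell from 69.1 to 53.7 CPM. Alternatives were other scalings, no filter, DESeq2 1.42.0, limma-voom 3.58.1, robust dispersion, a replicate block, the Y-linked level as covariate, no libraries near 0 in Y-linked genes or Xist, thinning, transcripts in place of genes and leaving out each library; scaling to all located reads was added after seeing the data.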

Additional observations from a re-analysis of the deposited data

How the results depend on the processing

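With TMM, 3198 genes rose and 3150 fell. The counts were 1700 and 1751 with the Y-linked level as covariate, 1787 and 1858 without the 3 libraries near 0 in Y-linked genes or Xist, and 5519 and 1685 with scaling to all located reads. Leaving out 1 library gave 2636 to 3060 higher and 2683 to 3052 lower. Of the members, 12 fell; 6 did with library totals alone, 3 with the Y-linked covariate and 3 with located reads, and 6 to 14 with 1 library left out (6 without control replicate 2 or knockout replicate 1). With located reads 14 members were higher in place of 6. Mitosis genes that fell went from 7 to 3 (library totals), 2 (Y-linked covariate) and 1 (located reads, where 5 were higher), and to 3 to 7 with 1 library left out. Replication genes that fell went from 4 to 1 (Y-linked covariate) and 2 (located reads, where 1 was higher), and to 3 to 6 with 1 library left out.

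Ccne1, the 1 gene of S phase entry that rose, gave 0 with DESeq2, with the covariate, without the 3 libraries and after thinning to 12807218 counts, and 0 to 1 with 1 library left out. All 5 D cyclins and kinases were higher with located reads. Cdkn2c, the 1 inhibitor that fell, gave 0 with library totals, DESeq2, the covariate and located reads, and without the 3 libraries, and 0 to 1 with 1 library left out. Other cell cycle genes that rose went from 5 to 10 (library totals), 2 (DESeq2), 3 (Y-linked covariate), 1 (without the 3 libraries), 2 (thinned) and 22 (located reads), and to 0 to 6 with 1 library left out. Those that fell went from 39 to 9 (Y-linked covariate), 25 (without the 3 libraries) and 15 (located reads), and to 25 to 43 with 1 library left out (25 without control replicate 2). p53 targets that rose went from 8 to 5 with the Y-linked covariate and 5 without the 3 libraries. Those that fell went from 2 to 1 (library totals), 1 (DESeq2), and 0 with the covariate, located reads and without the 3 libraries, and to 0 to 2 with 1 library left out. Why the counts moved between these settings was not tested.

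With the replicate block 6 members rose and 13 fell, Mcm6 being gained (-0.18, adjusted p 7.11e-03 by edgeR), and 45 of the other cell cycle genes fell. The labels do not pair the libraries by replicate number. For single members, 73 results lost a call under an alternative, 16 gained one and 671 kept their side of the threshold, and no called direction reversed. Leaving out the 3 libraries leaves 1 control, which is assumed to vary like the other libraries. The 95% intervals of the 22 uncalled members lay between -0.37 (E2f1) and 0.20 (Kif20a), and a call that was not made does not show that a gene did not change.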
